A study of Mus musculus with 12 samples.

Results

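Mammalian cells carry 3 genes for ATP-dependent DNA ligases, Lig1, Lig3 and Lig4, and these were followed in blood stem cells that had or had not kept a GFP label. The members were all probe sets annotated to exactly 1 of these genes in the array's probe-gene table. They came to 7 of the 45101 probe sets on the array: 1 for Lig1, 5 for Lig3 and 1 for Lig4. The genes were chosen by their GFPhigh minus GFP- differences in these same samples, so those differences are given below as descriptions, with no test.

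The study profiled haematopoietic stem cells (HSCs) sorted from mouse bone marrow on 12 Affymetrix arrays, with 3 biological replicates in each of 4 groups. All mice drank doxycycline for 6 weeks and were sampled 12 weeks after it was withdrawn. The groups were GFPhigh HSCs of NrasG12D/+ mice, GFP- HSCs of NrasG12D/+ mice, GFPhigh HSCs of wild-type mice and GFP- HSCs of wild-type mice, called Nras GFPhigh, Nras GFP-, wild-type GFPhigh and wild-type GFP- here. The labels call GFPhigh cells quiescent and GFP- cells cycling, and Nras G12D is an activating allele carried on 1 copy of the gene. The GFP transgene, the cells in which the Nras allele is switched on, the age of the mice and whether each replicate came from 1 mouse or a pool are not given in the sources used here. If the replicates were not from separate mice, the p-values below measure only the spread between these samples.

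A DNA ligase seals a nick in the sugar-phosphate backbone of DNA. Lig1 encodes the enzyme that joins Okazaki fragments, the short pieces of the lagging strand made in each S phase, and it also closes long-patch base excision repair. Lig3 encodes the ligase that works with the scaffold protein XRCC1 in single-strand break repair, in alternative end joining and in mitochondria. Lig4 encodes the ligase that works with XRCC4 in non-homologous end joining, the main route for double-strand breaks in cells outside S phase. In label-retention designs, GFP made during doxycycline exposure is diluted as cells divide, so cells that stay bright are those that divided least.

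The promoter sequences are shown first because Lig1 is a replication gene, and E2F factors are known to drive many replication genes. In RefSeq, Lig1 spans chr7:13277175-13311426, Lig3 spans chr11:82781109-82804274 and Lig4 spans chr8:9970020-9977680. The bases just upstream of a RefSeq transcription start (build GRCm38.p6) were taken for each gene, 5′ to 3′ on the gene's own strand, and a stretch downstream of the Lig1 start holds the match to the E2F consensus, in capitals.
Lig1 (chr7:13278726-13278825, plus strand, upstream of the start): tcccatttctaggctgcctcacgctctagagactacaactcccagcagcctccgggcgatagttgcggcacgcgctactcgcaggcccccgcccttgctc
Lig1 (chr7:13278841-13278870, plus strand, downstream of the same start): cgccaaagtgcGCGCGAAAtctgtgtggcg
Lig3 (chr11:82781009-82781108, plus strand, upstream of the start): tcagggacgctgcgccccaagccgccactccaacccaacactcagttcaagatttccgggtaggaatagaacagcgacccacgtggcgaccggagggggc
Lig4 (chr8:9977681-9977780, minus strand, upstream of the start): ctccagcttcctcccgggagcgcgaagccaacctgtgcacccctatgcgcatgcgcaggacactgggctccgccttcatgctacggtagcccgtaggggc

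The motif was searched on both strands as the 4 spellings TTTGGCGC, TTTCCCGC, TTTCGCGC and TTTGCCGC, in windows of 250 bases before and 50 bases after each start. All 3 ligase genes were found in the RefSeq table, Lig1 with 3 windows, Lig3 with 1 and Lig4 with 2. Only the Lig1 window shown held a match, 26 bases after the start, and that start is shown because its window held it. Over all genes, a match stood in 744 of 32851 windows (2.26%), and 704 of 27025 genes (2.6%) had a match in any window. Genes with more windows, such as Lig1, have more room for a match. A match is a description of the letters and not a site of binding. The same search found a match in 4 of 17 Okazaki fragment genes with a window (23.5%) and in 6 of 14 proliferation genes (42.9%), from lists described below. It found one in 1 of 15 base excision and single-strand break repair genes (6.67%), 1 of 9 non-homologous end joining genes (11.1%), 0 of 2 alternative end joining genes and 0 of 7 mitochondrial genes.

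Signals are the authors' MAS5 intensities, with a trimmed mean of 500 on every array. Array medians lay between 44 and 129.6. The background was read from 27 probe sets for bacterial transcripts, whose highest value on an array lay between 23.5 and 105.3. Markers of HSCs were present in every group: 8 of 10 listed markers were on the array, and all 8 lay above the array median in every sample. One of them, Cd34, read 86.2 in Nras GFPhigh replicate 1, under that array's highest bacterial probe set of 105.3. Arrays were not equally even: limma's array weights ran from 0.335 to 2.40, and the lowest 4 belonged to Nras GFPhigh replicates 1 and 2, Nras GFP- replicate 1 and wild-type GFPhigh replicate 2. Replicate 3 of every group stood apart in sex-linked transcripts. Signals of Xist, the RNA of the inactive X chromosome, were 91.8 to 205.1 there, against 5773.4 to 11480.7 in the other 8 samples. Signals of the Y-linked gene Eif2s3y were 3876.6 to 4544.9 there, against 2.3 to 674.7 in the other 8. Every group thus held the same mix, and values without replicate 3 are given below for Lig1, the leading Lig3 probe set and the counts of partner genes. The RNA came from sorted populations, so fewer cells of a type and less RNA per cell cannot be told apart.

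Lig1 signal was far lower in label-retaining Nras HSCs than in the other 3 groups. Its probe set 1416641_at read 47.1, 294.4 and 858.9 in Nras GFPhigh replicates 1 to 3. It read 7440.4, 3840.2 and 5183.8 in Nras GFP-. It read 3751.1, 4261.4 and 2635.8 in wild-type GFPhigh, against 3807.7, 4093.7 and 2651.8 in wild-type GFP-. All 3 Nras GFPhigh samples thus lay below all 9 others, while the wild-type GFPhigh and wild-type GFP- ranges lay almost on top of each other.

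Mean Lig1 signals were 400 ± 416 in Nras GFPhigh, 5488 ± 1819 in Nras GFP-, 3549 ± 831 in wild-type GFPhigh and 3518 ± 763 in wild-type GFP- (SD, n = 3 each). In order of level, Nras GFP- stood above wild-type GFPhigh and wild-type GFP-, but the ranges of these 3 groups overlapped, and Nras GFPhigh came last with no overlap. The GFPhigh minus GFP- difference was -4.53 in Nras cells and 0.0092 in wild-type cells on the log2 scale (SE 0.77 each). The SE, here and below, rests on 1 estimate of spread shared by the 4 groups. For Lig1 it understates the spread within Nras GFPhigh, given in the next paragraph. With 100 units added to every signal, which damps low values, the difference was -3.82 in Nras cells and 0.0090 in wild-type cells. Between samples of the same replicate number, the Nras GFPhigh signal was at least 70.7-fold lower than the Nras GFP- signal in replicate 1, where the GFPhigh sample was set to its array's highest bacterial probe set. GFP- over GFPhigh came to 13.0 and 6.04 in Nras replicates 2 and 3, against 1.02, 0.961 and 1.01 in wild-type replicates 1 to 3.

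Lig1 varied most within Nras GFPhigh on the log2 scale, with an SD of 2.12, against 0.48 in Nras GFP-, 0.36 in wild-type GFPhigh and 0.34 in wild-type GFP-. The lowest, replicate 1, stood at percentile 47.6 of its array, below the array median of 53.5 and below the highest bacterial probe set at 105.3, so its Lig1 level is only an upper bound and the log2 difference of -4.53 depends on a signal at background. Replicates 2 and 3 stood at percentiles 65.5 and 80.8, and the 9 samples of the other groups stood at percentiles 93.7 to 98.8. Without replicate 1 the Nras difference was -3.40 on the log2 scale, and without the 4 least even arrays, which leaves 1 Nras GFPhigh sample, it was -2.38. From replicates 1 and 2 alone it was -5.50 in Nras and 0.018 in wild-type cells.

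Other measures also differed in some of the Nras GFPhigh arrays, some of them in the order of Lig1 or its reverse and some not. The highest bacterial probe set was 105.3, 86 and 42.8 in Nras GFPhigh replicates 1 to 3, the reverse of the order of Lig1. The array weights were 0.416, 0.553 and 0.884, in the order of Lig1. Gapdh, read at its 3′ end over its 5′ end, gives a ratio that grows when RNA is degraded or its copying is cut short, and it was 7.28 and 5.70 in Nras GFPhigh replicates 1 and 3, against 2.57 to 4.48 in the other 10 samples. The same ratio for actin was 0.828, 0.992 and 1.01 in Nras GFPhigh, within the 0.900 to 1.09 of the other 9 samples except for replicate 1, which was the lowest of all 12. The summed signal of 12 granulocyte markers was 51184, 68553 and 10163 in Nras GFPhigh, against 8095, 4613 and 5586 in Nras GFP-. It was 14742, 1000 and 2720 in wild-type GFPhigh, against 14757, 2539 and 14971 in wild-type GFP-, so Nras GFPhigh replicates 1 and 2 stood apart. All 12 granulocyte markers lay above the array median in those 2 samples, and none was listed at 0 in any sample. Elane, at 57.7 in Nras GFPhigh replicate 1, lay under that array's highest bacterial probe set of 105.3. Not every marker was highest in Nras GFPhigh. Prtn3 had a mean of 176 there, against 290 in Nras GFP-, 612 in wild-type GFPhigh and 584 in wild-type GFP-. Summed endothelial and stromal markers ran from 3453 to 8159 in Nras GFPhigh, from 441 to 3913 in Nras GFP-, from 726 to 2111 in wild-type GFPhigh and from 2353 to 2705 in wild-type GFP-. Summed B lymphoid markers ran from 1127 to 3747 in Nras GFPhigh, from 376 to 1211 in Nras GFP-, from 578 to 1434 in wild-type GFPhigh and from 396 to 751 in wild-type GFP-. Summed erythroid markers were 8002, 6302 and 166 in Nras GFPhigh replicates 1 to 3, the reverse of the order of Lig1. They ran from 368 to 5101 in Nras GFP-, from 159 to 2197 in wild-type GFPhigh and from 130 to 4490 in wild-type GFP-. The part of RNA quality and of other cell types in the Lig1 values was not tested.

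**Figure D1:**
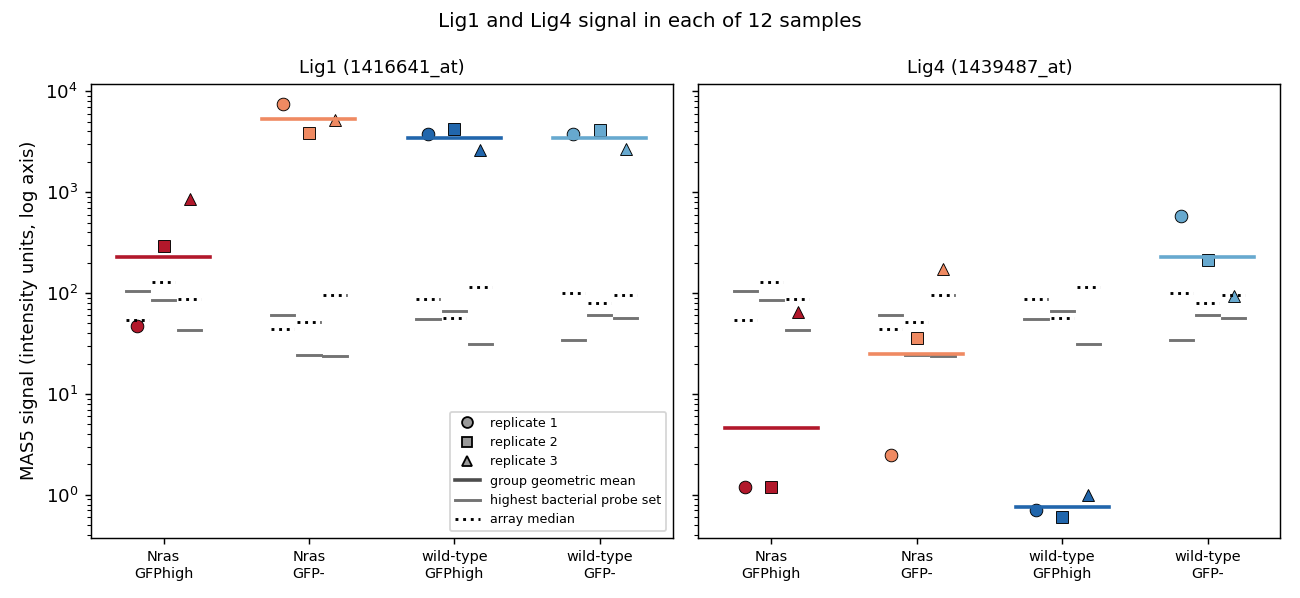
MAS5 signal (log axis) of Lig1 (left) and Lig4 (right) in each of the 12 samples, by group, with the geometric mean of each group as a coloured line, the array median as a dotted dash and the highest bacterial probe set of each array as a grey dash. Lig1 lies between 47.1 and 858.9 in Nras GFPhigh and at 2635.8 or above in every other sample, and Lig4 lies between 0.6 and 1.0 in wild-type GFPhigh, far under the grey dashes.

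Lig4 lay near background in many samples: it passed the highest bacterial probe set in 1 of 3 Nras GFPhigh, 2 of 3 Nras GFP-, 0 of 3 wild-type GFPhigh and 3 of 3 wild-type GFP- samples. Its probe set 1439487_at read 1.2, 1.2 and 65.2 in Nras GFPhigh, against 2.5, 35.8 and 172.3 in Nras GFP-. It read 0.7, 0.6 and 1.0 in wild-type GFPhigh, against 584.4, 213.8 and 94.3 in wild-type GFP-. In wild-type cells the GFPhigh samples all lay below the GFP- samples and below every bacterial maximum, while the Nras groups overlapped.

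Only 3 arrays lifted Lig4 above the array median, wild-type GFP- replicates 1 and 2 and Nras GFP- replicate 3, which is the least that the filter asked. Since wild-type GFPhigh held no sample above background, its level there is a bound: Lig4 was at least 4.67-fold lower in wild-type GFPhigh than in wild-type GFP-, with the highest bacterial probe set of each array taken as the level of the dim samples. The unbounded log2 difference, -8.25 (SE 1.90), was set by signals near 1 unit, and it became -1.78 with 100 units added and -3.33 with 25 units added. In Nras cells the difference was -2.45 (SE 1.90) and, with 100 units added, -0.39. Mean Lig4 signals were 22.5 ± 37.0 in Nras GFPhigh, 70.2 ± 90.0 in Nras GFP-, 0.767 ± 0.208 in wild-type GFPhigh and 298 ± 256 in wild-type GFP- (SD, n = 3 each). In order of level, wild-type GFP- came first and overlapped Nras GFP-, which overlapped Nras GFPhigh, and wild-type GFPhigh came last, below all 3 Nras GFPhigh samples but with both groups mostly within background.

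Lig3 was measured by 5 probe sets with differing patterns. Its leading probe set, 1437198_at, the one of highest mean log2 signal, read 1328.0, 1115.7 and 821.3 in Nras GFPhigh, against 1056.4, 1095.5 and 970.8 in Nras GFP-. It read 715.5, 442.8 and 1054.9 in wild-type GFPhigh, against 1548.5, 2798.3 and 687.5 in wild-type GFP-. The Nras samples lay in a narrow band, and in wild-type cells the GFPhigh samples were low in replicates 1 and 2 but high in replicate 3, so both pairs of groups overlapped. The GFPhigh minus GFP- difference was 0.038 in Nras and -1.05 in wild-type cells (log2, SE 0.59 each), and -1.89 in wild-type cells from replicates 1 and 2 alone.

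Probe set 1423419_at varied widely within every group. It read 154.5, 2101.1 and 338.4 in Nras GFPhigh, against 69.8, 1281.8 and 1107.5 in Nras GFP-. It read 100.5, 419.5 and 517.2 in wild-type GFPhigh, against 589.1, 293.0 and 786.8 in wild-type GFP-. The groups overlapped in both genotypes, and its highest and lowest samples were both Nras samples. The difference was 0.050 in Nras and -0.88 in wild-type cells (log2, SE 1.23 each).

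Probe sets 1425865_a_at and 1431715_a_at were lower in GFPhigh than in GFP- wild-type cells without overlap. Probe set 1425865_a_at read 112.1, 636.1 and 162.5 in Nras GFPhigh, against 189.3, 401.6 and 296.2 in Nras GFP-. It read 216.5, 265.9 and 258.3 in wild-type GFPhigh, against 415.3, 693.1 and 550.2 in wild-type GFP-. The difference was -0.32 in Nras and -1.14 in wild-type cells (log2, SE 0.78 each), and the Nras groups overlapped.

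Probe set 1431715_a_at reached background in part of the samples. It read 5.3, 14.9 and 202.7 in Nras GFPhigh, against 55.9, 23.0 and 155.9 in Nras GFP-, so 4 of 6 Nras samples lay at or below their array's highest bacterial probe set. It read 294.1, 43.9 and 163.7 in wild-type GFPhigh, against 396.6, 592.7 and 532.8 in wild-type GFP-. The difference was -1.22 in Nras and -1.96 in wild-type cells (log2, SE 1.28 each), the Nras value turned to 1.76 without the 4 least even arrays, and wild-type GFP- stood above all 9 other samples. The last Lig3 probe set, 1453986_at, which shares its design sequence accession with 1431715_a_at, failed the filter: it read 9.7, 518.1 and 2.8 in Nras GFPhigh, 3.4, 3.2 and 51.3 in Nras GFP-, 29.5, 0.7 and 13.3 in wild-type GFPhigh, and 90.1, 14.1 and 3.0 in wild-type GFP-. It was bright in 1 sample, Nras GFPhigh replicate 2, and near background elsewhere. Across the 12 samples the Lig3 probe sets correlated with each other at Pearson r between -0.207 and 0.629 on the log2(signal + 100) scale, a description over samples that share groups and arrays.

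**Figure D2:**
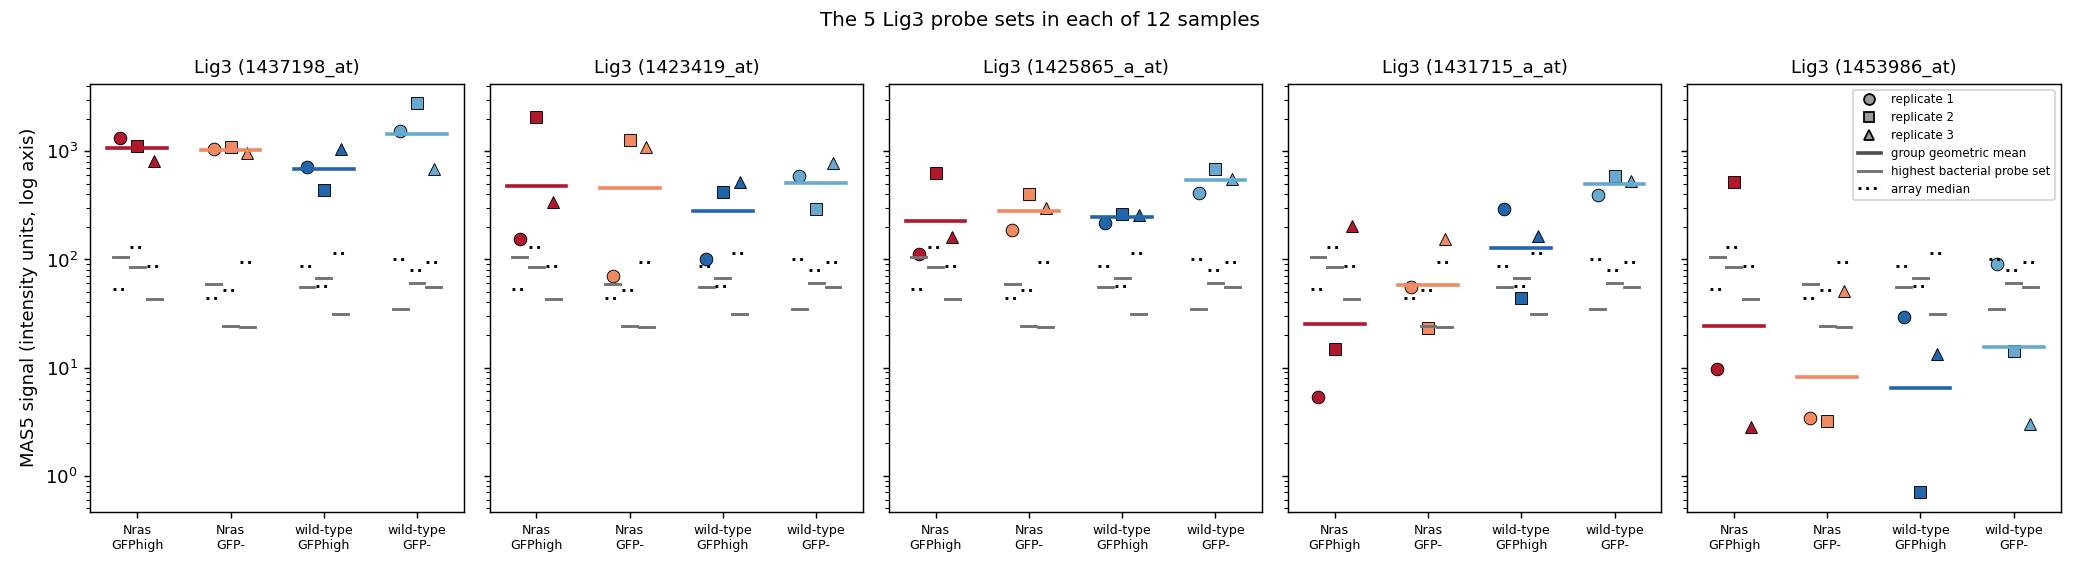
MAS5 signal (log axis) of the 5 Lig3 probe sets in each of the 12 samples, by group, with geometric means, array medians and highest bacterial probe sets drawn as in the plot of Lig1 and Lig4. Probe set 1437198_at stays between 442.8 and 2798.3, whereas 1431715_a_at reaches down to 5.3 in Nras GFPhigh and 1453986_at sits near background in most samples.

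Groups that did not overlap were then counted over the 7 ligase probe sets. In Nras cells 1 of 7 was lower in GFPhigh than in GFP- and 0 were higher, where 6.1% and 6.02% of all probe sets tested stood apart in those directions. In wild-type cells 3 of 7 were lower and 0 higher, where the background was 6.01% and 5.1%. These contrasts chose the genes, so the counts are not read further. Within GFPhigh cells, 1 of 7 was lower in Nras than in wild-type (Lig1, background 7.38%) and 1 stood higher (Lig4, background 4.34%), although 5 of those 6 Lig4 signals lay under their array's highest bacterial probe set, so their order has no meaning. Within GFP- cells, 2 of 7 were lower in Nras than in wild-type, both of them Lig3 probe sets (1425865_a_at and 1431715_a_at, background 7.06%), and 0 were higher (background 3.83%).

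The genes were not chosen by Nras minus wild-type averaged over GFPhigh and GFP- cells, 6 samples against 6. This contrast still used the same 12 samples. For Lig1 the log2 SD was 2.12 in Nras GFPhigh against 0.48 in Nras GFP-, and for Lig3 1431715_a_at it was 2.71 against 1.38. For Lig4 it was 0.38 in wild-type GFPhigh against 1.32 in wild-type GFP-. Spreads also differed between groups for the other ligase probe sets tested. The values and p of the ligases in this contrast are therefore not independent of the choice. By limma with Benjamini-Hochberg adjustment over 23128 probe sets, none of the 6 ligase probe sets tested differed at an adjusted p under 0.05, and neither did any other probe set (0%). At an unadjusted p under 0.05, 1721 probe sets were called, and 2 of the 6 were lower in Nras and 0 higher. Of all probe sets, 5.31% and 2.14% were called in those directions (7.44% in either). Given that dependence on the choice, the count of ligase probe sets is not read further. Lig1 averaged -1.66 ± 0.55 (log2 ± SE, unadjusted p = 0.00936, limma adjusted p = 0.619), a value made of -3.93 in GFPhigh and 0.61 in GFP- cells. Lig3 1431715_a_at averaged -2.72 ± 0.91 (unadjusted p = 0.0101, limma adjusted p = 0.619), made of -2.35 in GFPhigh and -3.10 in GFP- cells, and -1.25 with 100 units added. The leading Lig3 probe set averaged 0.076 ± 0.42 and Lig4 -0.30 ± 1.34, with limma adjusted p of 0.975 and 0.970. Lig3 1423419_at and 1425865_a_at averaged 0.31 ± 0.87 and -0.53 ± 0.55 (limma adjusted p of 0.947 and 0.840). The median of all genes tested was itself -0.15 in this contrast, and -0.079 with 100 units added.

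The partners of the ligases were then set beside them, in 5 lists that hold 63 genes, of which 58 were on the array and 55 passed the filter. Over both genotypes, GFPhigh minus GFP- was lower at an unadjusted p under 0.05 in 7 of the 55 and higher in 1, where 4.49% and 4.23% of 12084 genes were called in those directions (8.72% in either). By limma none passed an adjusted p under 0.05, nor did any other gene (0%), although 1054 genes had an unadjusted p under 0.05. The median of the 55 was -0.48, against 0.018 over all genes tested. In Nras cells alone 7 were lower and 3 higher (background 5.88% and 6.02%) with a median of -0.75, and in wild-type cells alone 0 were lower and 0 higher (background 1.11% and 1%) with a median of -0.18. The GFPhigh and GFP- samples did not overlap in Nras cells for 11 genes that were lower and 1 that was higher (background 6.21% and 6.7%). In wild-type cells they did not overlap for 6 lower genes and 1 higher gene (background 5.81% and 5.3%). The count of 7 lower genes became 4 without wild-type GFPhigh replicate 2, 3 without wild-type GFP- replicate 1 and 2 from replicates 1 and 2 alone. At its highest it was 10 among the alternatives and 9 when 1 sample was left out.

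Among the 20 genes of Okazaki fragment synthesis and maturation, the process that Lig1 completes, 19 had a negative GFPhigh minus GFP- value, where 5917 of 12084 genes did. At an unadjusted p under 0.05, 4 were lower and 0 higher (background 4.49% and 4.23%). Wdhd1, which links the replicative helicase to DNA polymerase alpha, read 131.9, 102.0 and 269.8 in Nras GFPhigh against 1153.7, 1930.9 and 1130.0 in Nras GFP-. It read 1217.7, 105.8 and 274.0 in wild-type GFPhigh against 1253.1, 468.4 and 754.7 in wild-type GFP-. Its groups stood apart in Nras and overlapped in wild-type cells, and the value over both genotypes was -2.18 ± 0.62 (log2 ± SE, unadjusted p = 0.00364, limma adjusted p = 0.428). The clamp loader subunit Rfc2 was at -0.73 ± 0.23 and the catalytic subunit of polymerase alpha, Pola1, at -1.19 ± 0.53, both called at the unadjusted threshold. The other gene called was Rfc1, a further clamp loader subunit, at -1.12.

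Pcna and Fen1 encode proteins that act side by side with Lig1 on Okazaki fragments. Pcna, the sliding clamp that holds Lig1 on DNA, read 7948.4, 8707.5 and 8184.1 in Nras GFPhigh against 7694.1, 8492.6 and 8054.4 in Nras GFP-. It read 6975.4, 7405.9 and 5632.2 in wild-type GFPhigh against 6396.7, 6520.1 and 6778.2 in wild-type GFP-. The GFPhigh and GFP- ranges overlapped in both genotypes, with a value of 0.025 ± 0.097. Fen1, the flap nuclease that trims Okazaki fragments before Lig1 seals them, was at -0.35 ± 0.31 and read 2423.6, 2295.0 and 2633.3 in Nras GFPhigh, inside the 1240.2 to 4855.9 of Nras GFP-. Its wild-type groups stood apart, with 2331.6, 3289.6 and 2360.8 in wild-type GFPhigh against 3324.4, 3855.1 and 3520.4 in wild-type GFP-.

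The contrast of Nras minus wild-type, averaged over GFPhigh and GFP-, called few of the 55 partner genes at an unadjusted p under 0.05. By limma, 1 was lower and 2 were higher, all 3 from the Okazaki fragment list, where 5.02% and 2.59% of all genes were called in those directions, and none passed an adjusted p of 0.05. Pcna was at 0.31 ± 0.097 (log2 ± SE, limma adjusted p = 0.619): all 6 Nras samples, from 7694.1 to 8707.5, lay above all 6 wild-type samples, from 5632.2 to 7405.9. Rfc4, a clamp loader subunit, was at 1.17 ± 0.54 and overlapped between genotypes. Rnaseh2b, a subunit of the ribonuclease that removes ribonucleotides from DNA, was at -2.68 ± 1.18, and at -1.87 with 100 units added. It read 920.0, 10.8 and 1828.5 in Nras GFPhigh and 121.1, 128.1 and 4315.9 in Nras GFP-, against 1463.4, 2810.6 and 1421.8 in wild-type GFPhigh and 2940.3, 2392.0 and 2080.3 in wild-type GFP-. The genotypes overlapped, and the highest of the 12 samples was an Nras sample.

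In base excision and single-strand break repair, 1 of 14 genes tested was lower at the unadjusted threshold and 0 were higher, with a median of -0.60. That gene was Ung, the glycosylase that removes uracil from DNA, at -2.50 ± 1.10. It read 7.5, 2687.7 and 2103.9 in Nras GFPhigh against 5433.6 to 5585.5 in Nras GFP-, and 2637.0, 1652.6 and 3064.9 in wild-type GFPhigh against 4284.6 to 5397.3 in wild-type GFP-, so GFPhigh lay below GFP- in both genotypes, with 1 Nras GFPhigh sample at background, and the value was -1.84 with 100 units added. Xrcc1, the scaffold of Lig3, was at -0.85 ± 0.61 and stood apart in Nras cells, with 405.2, 86.0 and 305.1 in GFPhigh against 1645.7, 421.7 and 562.4 in GFP-, and overlapped in wild-type cells. The nick sensors Parp1 and Parp2 were at -0.71 ± 0.33 and 0.95 ± 0.50, neither past the threshold.

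In non-homologous end joining, the pathway of Lig4, 1 of 9 genes tested was lower and 0 were higher, with a median of -0.0041. The lower gene was Prkdc, the catalytic subunit of DNA-PK, at -2.92 ± 1.08, and at -1.45 with 100 units added, with 9.8, 24.2 and 278.3 in Nras GFPhigh against 697.1, 338.5 and 646.8 in Nras GFP-. In wild-type cells it read 6.5, 149.6 and 230.1 in GFPhigh against 868.8, 56.9 and 366.9 in GFP-, which overlapped. Its signals of 9.8, 24.2 and 6.5 lay under the highest bacterial probe set of their arrays. Xrcc4, the direct partner of Lig4, was at 1.71 ± 1.32, the stimulating factor Nhej1 at 0.88 ± 0.70, the Ku subunits Xrcc5 and Xrcc6 at -0.90 ± 0.73 and -0.025 ± 0.33, and the chromatin-bound repair factor Trp53bp1 at 0.22 ± 0.13. None of these passed the unadjusted threshold.

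In alternative end joining, 1 of 4 genes tested was lower and 0 higher, with a median of -0.54. Mre11a, the nuclease of the MRN complex that trims broken ends, was at -1.59 ± 0.52 (unadjusted p = 0.00930, limma adjusted p = 0.489) and stood apart in both genotypes. Its complex partners Rad50 and Nbn were at -0.79 ± 0.49 and -0.29 ± 0.49, and Polq, the polymerase of this pathway, at 0.40 ± 0.72. In mitochondrial DNA maintenance, 0 of 8 genes were lower and 1 was higher, with a median of 0.051. That gene was Ssbp1, the mitochondrial single-strand binding protein, at 0.27 ± 0.11. The polymerase subunits Polg and Polg2 were at -0.76 ± 0.51 and 1.34 ± 1.01. The count of 1 higher gene over the 5 lists became 4 without Nras GFPhigh replicate 3 and 0 without any of 6 other samples.

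**Figure D3:**
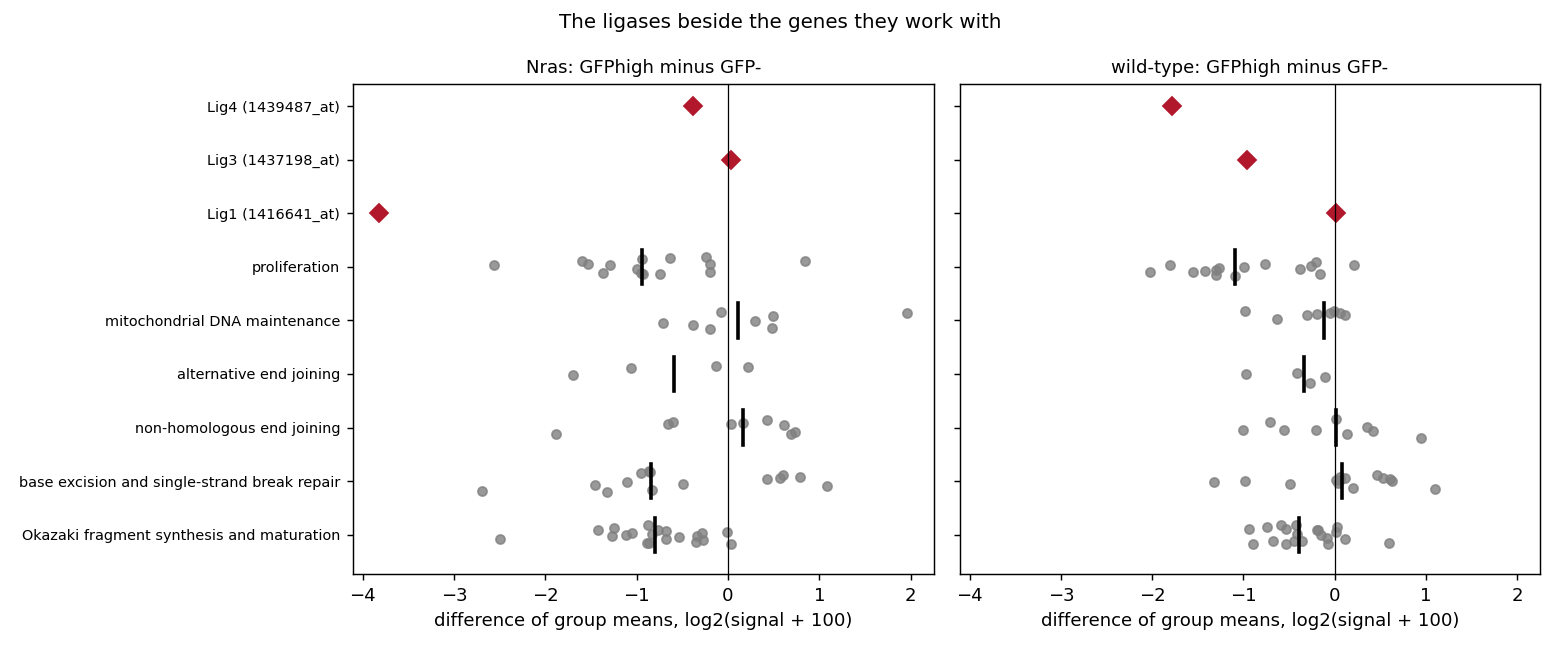
GFPhigh minus GFP- difference of group means on the log2(signal + 100) scale (horizontal axis) in Nras (left) and wild-type cells (right), with 1 grey point per gene tested in each list, the list median as a black line and the leading probe set of each ligase as a red diamond. Lig1 lies at -3.82 in Nras and 0.0090 in wild-type cells, and Lig4 at -0.39 in Nras and -1.78 in wild-type cells.

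Lig1 was also set beside genes of dividing cells. Of 15 proliferation genes tested, 10 were lower in GFPhigh over both genotypes at an unadjusted p under 0.05 and 0 were higher (background 4.49% and 4.23%), with a median of -1.27. The counts of lower genes were 7 in Nras (background 5.88%) and 6 in wild-type cells (background 1.11%). Mcm5 and Mcm7 encode helicase subunits that open DNA ahead of the fork. Mcm5 was at -1.05 ± 0.24 (unadjusted p = 0.000799, limma adjusted p = 0.324) and stood apart in both genotypes. Mcm7 was at -1.58 in Nras and -0.27 in wild-type cells. Uhrf1, which carries DNA methylation through replication, was at -2.65 ± 0.78, and at -1.93 with 100 units added, and the topoisomerase Top2a at -1.27 ± 0.46. The proliferation antigen gene Mki67 was at -0.21 in Nras and -2.54 in wild-type cells, a value of -1.38 ± 0.83 over both genotypes that did not pass the threshold. For Lig1 the same difference was -4.53 in Nras and 0.0092 in wild-type cells, and how far these genotype differences depart from each other was not tested.

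**Figure D4:**
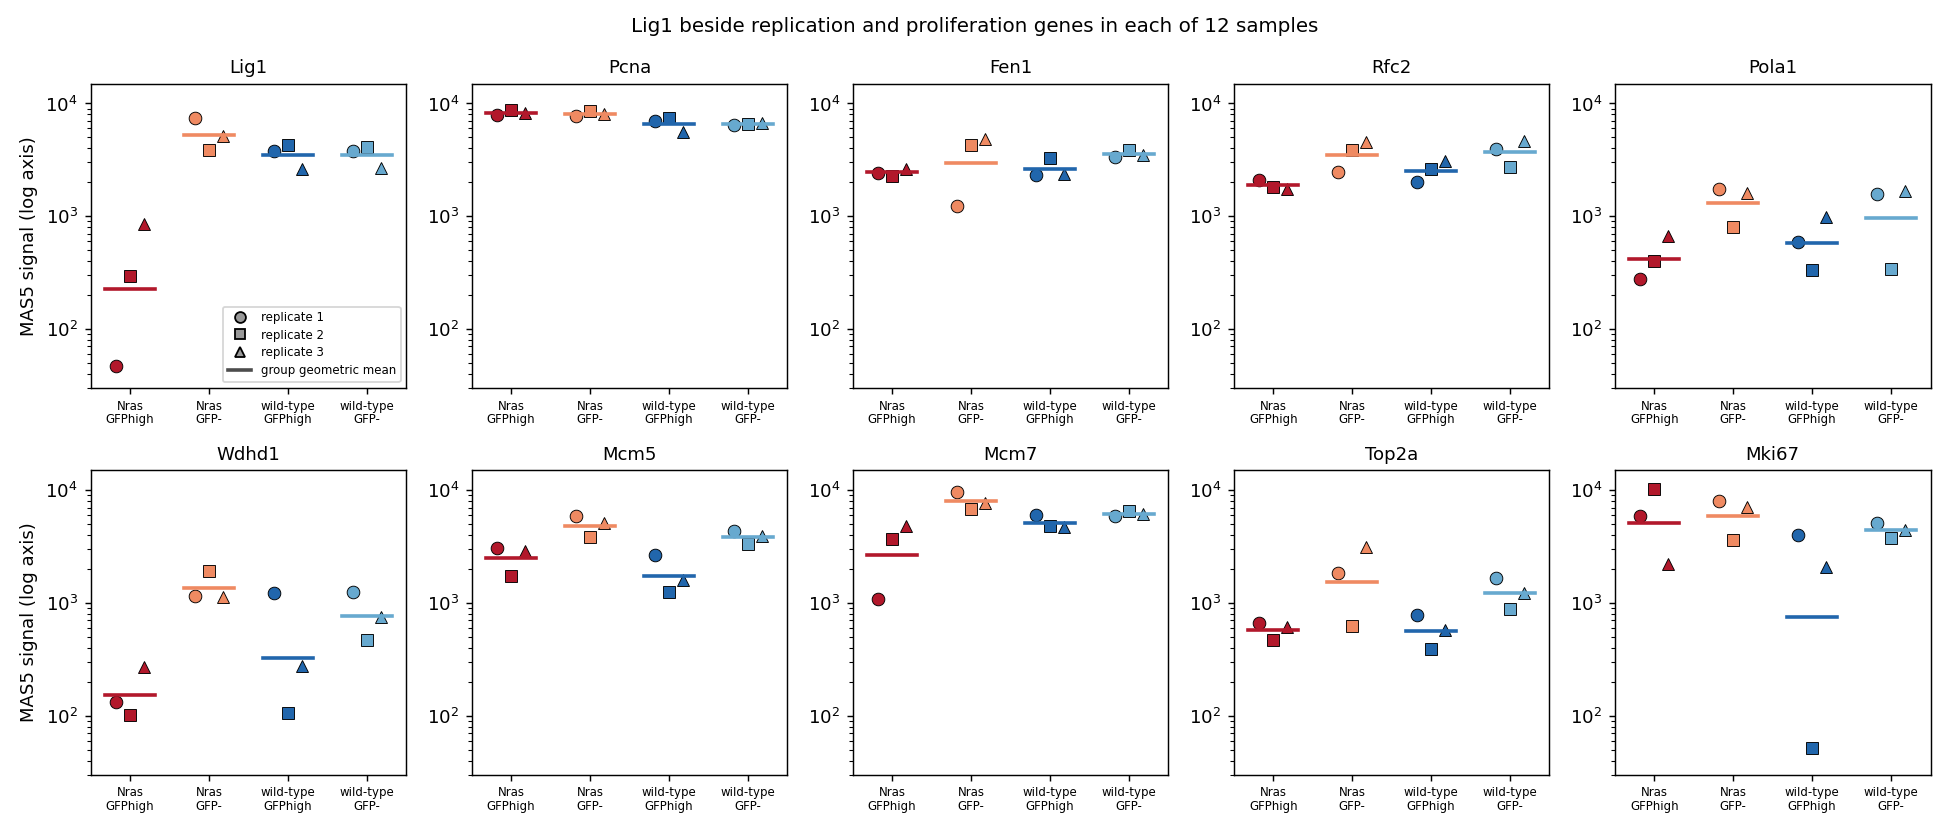
MAS5 signal (log axis) of Lig1 and 9 replication and proliferation genes in each of the 12 samples, by group, with the geometric mean of each group as a line. Pcna stays between 5632.2 and 8707.5 in every sample. Lig1, Wdhd1, Rfc2, Pola1, Mcm5 and Mcm7 have all 3 Nras GFPhigh samples below all 3 Nras GFP- samples, and the other genes drawn do not.

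The genes whose pattern was most like each ligase were found by Pearson r over the 12 samples on the log2(signal + 100) scale, against 12083 other genes. For Lig1 they were Cbx1 at 0.948, Coa5 at 0.947, Arhgef2 at 0.943, Atp2a2 at 0.932 and Ube2e3 at 0.926, with a median of 0.00903 over all genes. Mean signals of Cbx1, which encodes a heterochromatin protein, were 949.5 in Nras GFPhigh, 2483 in Nras GFP-, 1900 in wild-type GFPhigh and 2356 in wild-type GFP-. Among the listed proliferation genes Lig1 stood at r 0.905 with Mcm7 and 0.599 with Uhrf1, but at -0.218 with Mki67. It stood at 0.800 with Ung and 0.783 with Polb, the gap-filling polymerase of base excision repair. In the Okazaki fragment list r ran from -0.369 with Pcna to 0.668 with Wdhd1. It was 0.561 with Pola1, 0.538 with Rfc2 and 0.180 with Fen1. For the leading Lig3 probe set the nearest were 1700096K18Rik at 0.924, Zfp568 at 0.866, Gpaa1 at 0.854, Ddx59 at 0.846 and Cbx8 at 0.824. For Lig4 they were B330016D10Rik at 0.908, Setmar at 0.890, Kctd12b at 0.887, Gm10658 at 0.868 and Cactin at 0.831. These values describe samples that share 4 groups and uneven arrays, and the highest of many correlations are high by selection.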

How the data were processed

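Per the labels' protocols, total RNA was extracted with Trizol from sorted cells and hybridised as biotinylated cRNA. Per the submitters' processing notes, the deposited signals are MAS5 intensity values, and every array has a trimmed mean of 500. No detection calls were used here. Depth has no meaning for arrays, and the number of arrays limits the precision. From these values log2 was taken with a floor of 0.1 (3 values were at 0), and limma 3.58.1 in R 4.3.3 was fitted with an intensity trend and 1 mean per group over all 12 samples, with Benjamini-Hochberg adjustment. Probe sets entered where the platform annotation gave 1 symbol (34945 probe sets; 932 had several symbols and 9160 none) and the signal passed the array median in at least 3 arrays, which left 23128. For genes with several probe sets, the brightest on average over the 12 arrays stood for the gene, the ligases apart. The members, lists and tests were chosen with earlier results of these data known. Named genes are every ligase probe set, from each list the 3 genes of smallest p plus fixed partners, and the 5 genes most like each ligase. Rfc1, Rfc4, Rnaseh2b, Polb, Xist and Eif2s3y were chosen after their values were seen. Symbols are those of the platform annotation, and coordinates are RefSeq's, GRCm38.p6. The fit was tested on simulated data. Alternatives changed the scale of low signals, the normalization, the filter, the weights, the trend and the samples used.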

Additional observations from a re-analysis of the deposited data

How the results depend on the processing

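No ligase probe set passed an adjusted p of 0.05 in Nras minus wild-type under any alternative that gave a value. Lig1 ranged from -2.32 to -0.75 and Lig3 1431715_a_at from -3.72 to -1.25 (log2), with limma adjusted p from 0.152 to 0.912 for each. The small averages changed sign: Lig3 1437198_at became -0.028 with array weights, -0.28 without the 4 uneven arrays and -0.19 to 0.32 when 1 sample was left out. Lig3 1423419_at ran from -0.22 to 0.995 when 1 sample was left out. Lig4 became 0.62 with array weights, 2.37 without the 4 uneven arrays and -1.26 to 0.53 when 1 sample was left out, and it had no value where it failed the filter, such as under the 75th percentile filter. The cause was not tested. Without the 4 uneven arrays the Nras GFPhigh minus GFP- difference was -2.38 for Lig1, -1.82 for Lig3 1423419_at, -1.09 for Lig3 1425865_a_at and 1.76 for Lig3 1431715_a_at. The 7 lower pathway genes became 2 with replicates 1 and 2 alone, at most 10 among the alternatives, and 3 to 9 when 1 sample was left out. The 1 higher gene became 0 with quantile normalization, median centring or no trend, 2 with replicates 1 and 2 alone, and 0 to 4 when 1 sample was left out: 4 without Nras GFPhigh replicate 3, and 0 without replicate 2 of Nras GFPhigh, Nras GFP- or wild-type GFPhigh, replicate 1 of wild-type GFPhigh or wild-type GFP-, or replicate 3 of wild-type GFP-.

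Over all probe sets, adjusted calls in GFPhigh minus GFP- over both genotypes were 0 in limma (1896 probe sets had an unadjusted p under 0.05) and at most 9, with 100 units added. In Nras minus wild-type they were 0 and at most 2. Same-numbered samples were not treated as pairs, since over 18 such pairs the correlation of deviations from the group means ran from -0.0371 to 0.156 and 3 exceeded 0.1. Those 3 were pairs of replicate 3, the replicate that stands apart in sex-linked transcripts, whose 6 pairs ran from 0.0382 to 0.156. The 18 pairs include pairs across genotypes. Pairs of GFPhigh and GFP- within a genotype ran from -0.00141 to 0.116. If such pairs came from the same mice, the 6 samples of a genotype are not 6 separate animals. With the replicate number as a block, Lig1 stayed at -1.66 (limma adjusted p = 0.537), Lig3 1431715_a_at at -2.72 (limma adjusted p = 0.485), and the pathway counts were 8 lower and 1 higher. Signals near the bacterial controls limit what can be said of Lig4 and of Lig3 1431715_a_at and 1453986_at.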
